A study of Mus musculus with 6 samples.

Results

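The genes described here are 10 mouse genes that make and present class I peptides: the immunoproteasome subunits Psmb8, Psmb9 and Psmb10, the proteasome activator subunit Psme1, the peptide transporter genes Tap1 and Tap2, the loading factor Tapbp, the peptidase Erap1, and B2m and H2-K1, which encode the class I molecule itself. They were chosen from the outcome of these arrays: Psmb8 had stood among the few genes past the threshold both when SB431542 was set against control and when activin was set against SB431542, and the other genes were added as its partners in the pathway with their values already known. All 10 were measured, of 18193 genes with a named probe set. They are represented by 20 of 45037 probe sets, and a further 2 probe sets, annotated to several heavy chain genes each, could not be assigned to any of them.

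The cells were E14Tg2a, a mouse embryonic stem cell line, and all 3 groups were kept without serum in N2B27 medium, to which LIF (1000 U/ml) and BMP4 (20 ng/ml) had been added. Cells of the first group received activin at 10 ng/ml for 2 h, those of the second received SB431542 (spelled SB432542 in some labels) at 5 µM for 24 h, and control cells were left untreated. Activin signals through type I receptor kinases to Smad2 and Smad3, and SB431542 inhibits those kinases. Each group had 2 arrays, no vehicle is stated for the controls, and separate cultures are not stated for the arrays of any group, so errors and p-values cover the spread between arrays only, which may be technical.

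Proteasomes cut proteins into peptides. In most cells the cutting is done by the constitutive catalytic subunits Psmb5, Psmb6 and Psmb7. In immune cells and in cells exposed to interferon gamma, Psmb8, Psmb9 and Psmb10 take their places, and the activator that contains Psme1 opens the particle. The transporter formed by Tap1 and Tap2 carries peptides into the endoplasmic reticulum, Erap1 trims them there, and tapasin, the product of Tapbp, helps to load them on a class I heavy chain such as H2-K1 joined to beta-2-microglobulin, the product of B2m. Embryonic stem cells are known for little class I protein on their surface.

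The treatments left marks of unlike size on genes known to depend on Nodal and activin. All 6 such genes measured were below control with SB431542, by log2 differences from −5.53 to −0.41. With activin all 6 were above control, from 0.13 for Skil and 0.14 for Nodal to 1.42 for Lefty1. The smallest limma adjusted p with activin was 0.789 at default settings. Lefty2, a secreted Nodal antagonist, had intensities of 1348 and 1253 on the activin arrays and of 14 and 16 on the SB431542 arrays, against 497 and 493 on the control arrays. All 9 markers of embryonic stem cells lay above background on every array, background being the highest value of 27 bacterial control probe sets, an intensity of 34. The Lefty2 values with SB431542 lay below it. Summed over 13 measured markers of blood and immune cells, the intensity was 886 and 1038 with activin, 823 and 824 with SB431542, and 1014 and 888 in control. Among them Ptprc, the pan-leukocyte antigen CD45, was between 12 and 15 on all 6 arrays, at background, and so were 6 of the 13 in all. The 3 over background on every array were Laptm5, Csf1r and Cd3e. Laptm5 made up most of each sum, with 525 and 533 with activin and 418 and 454 with SB431542, against 540 and 483 in control. After SB431542, 8 of the 13 were below control and 5 above, with a median log2 difference of −0.22. Over all probe sets the column medians ran from 37 to 49.

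The promoter sequences of the genes with the largest differences, Psmb8, Psmb10 and Erap1, are shown with those of Psme1 and B2m. Among the members searched, Erap1, Psme1 and B2m were those with an exact match to the interferon response element core given below. Each window runs from 250 bases before the start of the gene to 50 bases after it, 5′ to 3′ on the strand of the gene, and comes from RefSeq on build GRCm38.p6 of strain C57BL/6J, not from the cells of this study. Capitals mark motif matches, of which the Psmb8 and Psmb10 windows hold none.
Psmb8 (chr17:34197945-34198244, plus strand): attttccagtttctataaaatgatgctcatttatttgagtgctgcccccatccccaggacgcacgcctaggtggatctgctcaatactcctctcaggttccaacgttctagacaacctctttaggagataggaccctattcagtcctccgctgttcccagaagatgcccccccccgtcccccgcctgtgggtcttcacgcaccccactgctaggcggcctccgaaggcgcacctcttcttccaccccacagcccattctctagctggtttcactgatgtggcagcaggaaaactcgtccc
Psmb10 (chr8:105938343-105938642, minus strand): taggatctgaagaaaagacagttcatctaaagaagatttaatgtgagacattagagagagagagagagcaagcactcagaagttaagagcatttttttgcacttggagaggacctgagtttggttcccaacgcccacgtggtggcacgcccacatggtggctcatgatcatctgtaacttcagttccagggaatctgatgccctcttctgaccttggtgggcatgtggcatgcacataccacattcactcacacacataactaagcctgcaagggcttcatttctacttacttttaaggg
Erap1 (chr13:74639603-74639902, plus strand): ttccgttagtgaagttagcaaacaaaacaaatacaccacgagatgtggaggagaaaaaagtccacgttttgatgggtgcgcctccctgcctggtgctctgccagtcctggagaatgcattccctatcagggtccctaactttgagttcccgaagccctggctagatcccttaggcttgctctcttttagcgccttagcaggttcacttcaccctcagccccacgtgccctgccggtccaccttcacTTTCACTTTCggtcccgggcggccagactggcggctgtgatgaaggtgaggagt
Psme1 (chr14:55578244-55578543, plus strand): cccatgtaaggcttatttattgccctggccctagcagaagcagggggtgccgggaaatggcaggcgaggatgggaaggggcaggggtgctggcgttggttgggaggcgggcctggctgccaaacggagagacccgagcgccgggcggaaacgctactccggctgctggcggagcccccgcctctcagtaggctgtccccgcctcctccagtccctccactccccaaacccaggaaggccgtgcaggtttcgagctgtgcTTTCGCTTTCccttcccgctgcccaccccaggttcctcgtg
B2m (chr2:122147437-122147736, plus strand): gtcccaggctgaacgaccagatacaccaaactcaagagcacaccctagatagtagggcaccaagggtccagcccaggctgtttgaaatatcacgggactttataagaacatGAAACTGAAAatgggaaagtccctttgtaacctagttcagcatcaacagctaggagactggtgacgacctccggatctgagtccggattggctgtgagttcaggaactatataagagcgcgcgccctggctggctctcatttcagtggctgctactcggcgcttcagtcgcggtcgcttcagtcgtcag

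A total of 3 motifs were searched on both strands in the windows of 9 of the 10 genes. The core of the interferon response element, GAAANNGAAA, which interferon regulatory factors bind, was found in 3 of the 9, in Erap1, Psme1 and B2m, and in 3.44% of all 32851 windows. In Erap1 it lay across the start of the gene on the opposite strand. The palindrome GTCTAGAC, bound by Smad proteins, was found in 0 of the 9 and in 0.213% of all windows. The Foxh1 site AATNCACA was found in 0 of the 9 and in 3.60% of all windows. No match overlapped another, and a match is a description of the letters in the window. Only exact matches were counted, so a window without one, such as that of H2-K1, may still hold an element with other letters. The windows of Psmb9 and Tap1 share 275 bases, since these genes are read in opposite directions from starts 226 bases apart.

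The comparison of SB431542 with control asks which transcripts depend on receptor signalling that is present without added activin. Psmb8 was at 16.5% of its control level and Psmb10 at 32.0%, and Erap1, at 31.2%, lay about background with SB431542, which limits its value. The transporter genes, Psmb9 and Psme1 were lower by less, and B2m and H2-K1 were not lower on every array. Since Psmb8 was chosen on this comparison, the members' differences and counts of calls are given as a description with no p-value. They are log2 differences of deposited intensities, with limma's standard error (SE) and 2 arrays in each group.

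Psmb8 encodes the immunoproteasome subunit that stands in for Psmb5. Its brightest probe set had intensities of 226 and 222 on the activin arrays and of 44 and 49 on the SB431542 arrays, against 288 and 274 on the control arrays. Both SB431542 arrays lay far below the other 4, and the activin arrays lay below the controls without overlap. SB431542 minus control was −2.60 (SE 0.12), 6.05-fold lower. With SB431542 the values came near the background of 34. The other Psmb8 probe set lay at background on all 6 arrays, from 10 to 15, and carries no information on the gene's level.

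Psmb10, the counterpart of Psmb7, had intensities of 535 and 560 on the activin arrays and of 177 and 197 on the SB431542 arrays, against 607 and 561 on the control arrays. The SB431542 arrays again stood apart from all others, while the activin arrays lay just below the lower control. SB431542 minus control was −1.64 (SE 0.13), 3.13-fold lower. Unlike those of Psmb8, all its values were well above background. Psmb9, which stands in for Psmb6, had 72 and 97 with activin and 66 and 57 with SB431542, against 118 and 92 in control. SB431542 minus control was −0.76 (SE 0.21), with no overlap, and the activin arrays overlapped the controls.

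The catalytic subunits that these 3 genes replace differed from control by less. Psmb5 had intensities of 5363 and 5434 with activin and 5013 and 5100 with SB431542, against 6351 and 6043 in control. Its SB431542 minus control was −0.29 (SE 0.12, limma adjusted p = 0.382, and 0.0065 with the intensity-dependent prior described further on), while Psmb6 was at −0.02 and Psmb7 at −0.09. Of 16 other genes for subunits and assembly factors of the proteasome core, 6 were below control and 10 above, with a median log2 difference of 0.03. Of the 16, 0 were past the threshold of 0.05 on limma's adjusted p, as were only 0.0155% of all probe sets. Psmb1, at +0.31 (limma adjusted p = 0.373), was past it with that prior (0.0040).

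Psme1, the alpha subunit of the activator PA28, had intensities of 1313 and 1338 on the activin arrays and of 1065 and 1057 on the SB431542 arrays, against 1796 and 1534 on the control arrays. The 3 groups did not overlap. SB431542 minus control was −0.65 (SE 0.13), 1.56-fold lower. Of the other activators, Psme3, the gamma form found in the nucleus, was at +0.31 (SE 0.11, limma adjusted p = 0.357) and Psme4, which encodes PA200, at +0.25 (SE 0.12, limma adjusted p = 0.452). Both passed with the intensity-dependent prior, Psme3 with an adjusted p of 0.0444 and Psme4 with 0.0433. The inhibitor gene Psmf1 was at +0.01.

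**Figure D1:**
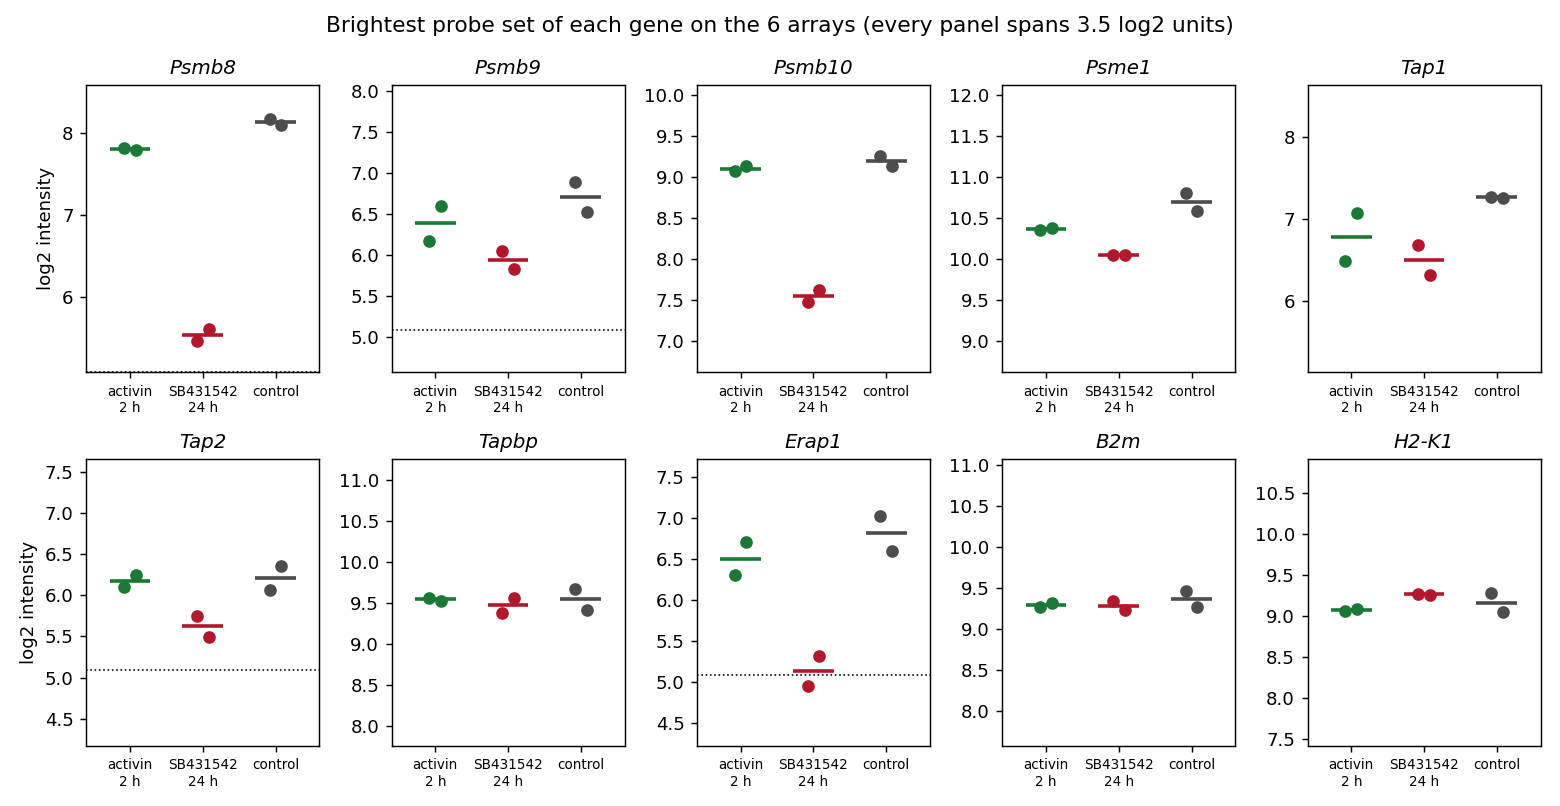
Log2 intensity of the brightest probe set of each of the 10 genes on every array, with activin, SB431542 and control from left to right; points are arrays, bars are group means, and the dotted line is the highest bacterial control value. The SB431542 arrays of Psmb8, Psmb10 and Erap1 lie far below the other arrays, and the groups of Tapbp and B2m overlap.

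Tap1 and Tap2 encode the pair of chains of the peptide transporter. Tap1 had intensities of 90 and 134 with activin and 103 and 80 with SB431542, against 154 and 153 in control at its brightest probe set. Every treated array lay below both controls, and the treated groups overlapped each other. SB431542 minus control was −0.76 (SE 0.23). Its other 3 probe sets stayed at background on all 6 arrays, with differences between −0.37 and −0.11. Tap2 had 69 and 76 with activin and 54 and 45 with SB431542, against 67 and 82 in control. Only the SB431542 arrays of Tap2 stood below the controls without overlap, at −0.59 (SE 0.17).

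Erap1, the trimming peptidase, had intensities of 79 and 105 on the activin arrays and of 31 and 40 on the SB431542 arrays, against 131 and 97 on the control arrays. The SB431542 arrays were below all others, and the activin and control arrays overlapped. SB431542 minus control was −1.68 (SE 0.24), 3.20-fold lower. With SB431542 the gene lay about background, which limits that fold. Its dimmer probe set had 38 and 45 with activin and 17 and 16 with SB431542, against 42 and 21 in control, a difference of −0.85 (SE 0.33) that rests on control arrays unlike each other.

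Tapbp gave different values at its 2 probe sets. At the brighter it had 758 and 734 with activin and 667 and 757 with SB431542, against 814 and 685 in control, overlapping groups with SB431542 minus control at −0.07 (SE 0.15). At the dimmer it had 243 and 248 with activin and 191 and 173 with SB431542, against 293 and 214 in control. There SB431542 lay below control without overlap, at −0.46 (SE 0.18).

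B2m and H2-K1 encode the chains of the class I molecule. B2m had intensities of 617 and 635 with activin and 645 and 602 with SB431542, against 704 and 616 in control at its brighter probe set. These groups overlapped, with SB431542 minus control at −0.08 (SE 0.13). The other B2m probe set had 483 and 507 with activin and 683 and 645 with SB431542, against 525 and 447 in control, so that SB431542 was higher without overlap, by 0.45 (SE 0.14). The probe sets of 1 gene thus disagreed, and no single value can be given for B2m. H2-K1 had 534 and 546 with activin and 620 and 614 with SB431542, against 624 and 531 in control at its brightest probe set, a difference of 0.10 (SE 0.13). The next brightest had 259 and 280 with activin and 418 and 385 with SB431542, against 365 and 256 in control, so that SB431542 was higher than the other groups without overlap, at 0.39 (SE 0.20) over control. The remaining pair of probe sets were at 0.02 and 0.47, the last at background. All 4 carry a suffix by which Affymetrix marks probes that match other transcripts too, and class I heavy chains are close in sequence, so the signal of H2-K1 may include that of its relatives. Among these H2-D1, a second classical heavy chain gene, was at +0.39 (SE 0.14, limma adjusted p = 0.349).

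**Figure D2:**
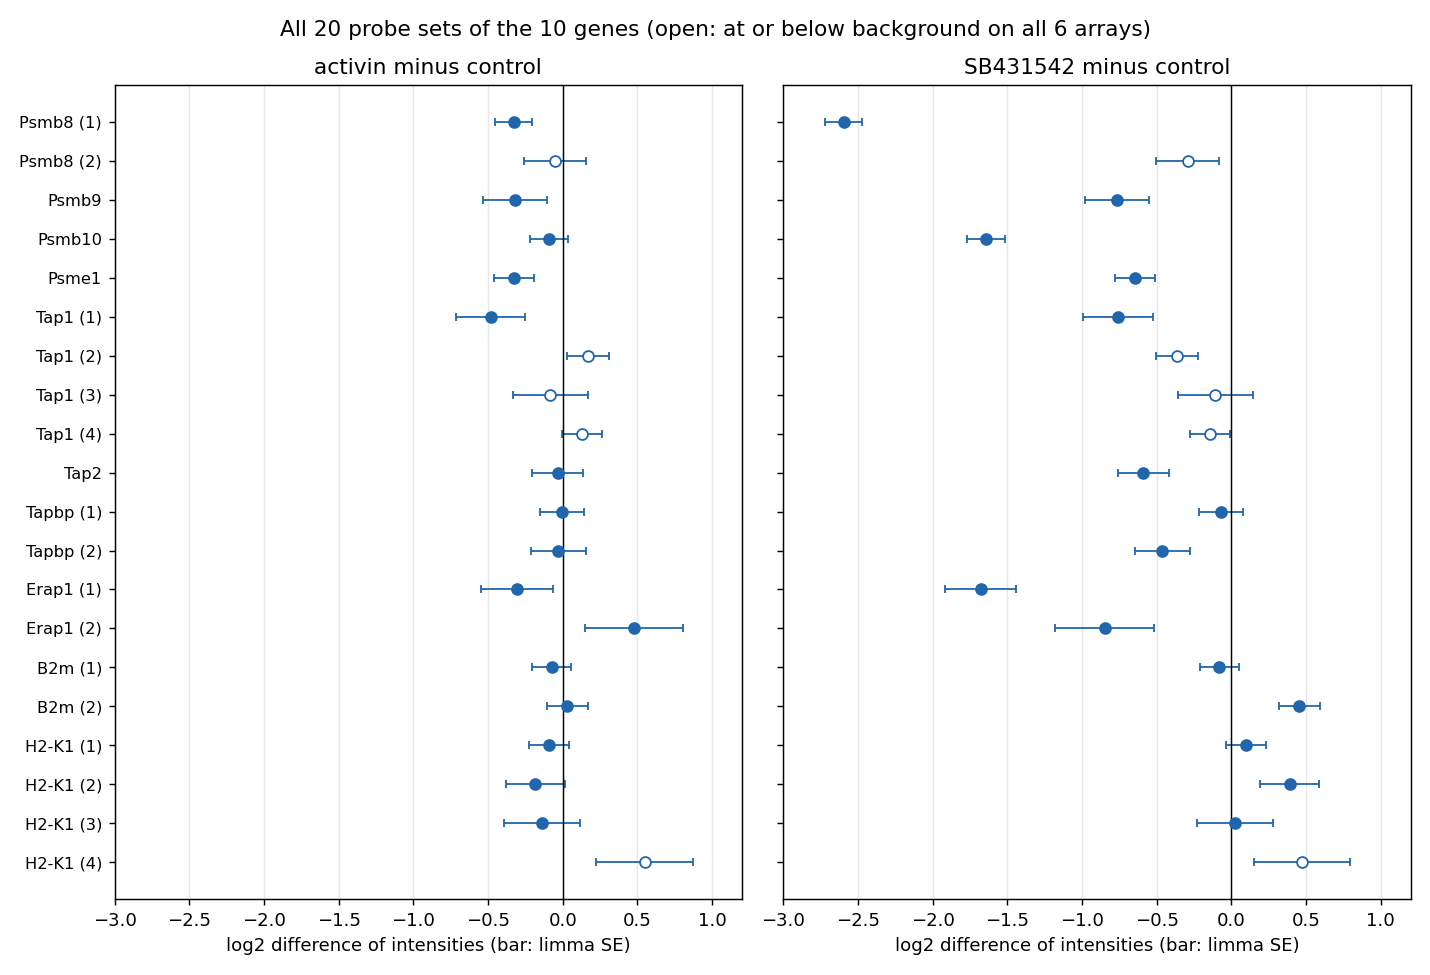
Log2 difference of each of the 20 probe sets, activin minus control on the left and SB431542 minus control on the right; bars are limma's SE, numbers in brackets run from the brightest probe set of a gene to the dimmest, and open points lie at or below background on all 6 arrays. On the right the points run from −2.60 for Psmb8 to 0.47 for a dim H2-K1 probe set, and on the left all lie between −0.48 and 0.55.

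Counted by the brightest probe set, both SB431542 arrays lay below both control arrays in 7 of 10 genes and above them in 0, where 22.1% of all probe sets lay below and 20.6% above. The 7 were Psmb8, Psmb9, Psmb10, Psme1, Tap1, Tap2 and Erap1, and Tapbp, B2m and H2-K1 overlapped. Over all 20 probe sets the counts were 10 below and 2 above. The median log2 difference of the 10 genes was −0.70, and that of all 45037 probe sets was −0.03. By limma at its default settings 1 of the 20 probe sets, that of Psmb8, was called, where 0.0155% of all were. With robust estimation and a prior variance that follows the intensity (the intensity trend), 6 were called, where 4.98% of all were: lower in Psmb8, Psmb10, Psme1, Tap1 and Erap1, and higher in the dimmer B2m probe set. The members were chosen with these values known, so the calls are a description and not a test of the members. In 9 of the 10 genes the group means ran from SB431542, the lowest, through activin to control, as they did in 21.8% of all probe sets, and in H2-K1 SB431542 was highest. In Tapbp and B2m this order rested on differences within the SE, with Tapbp at −0.00 for activin minus control and B2m at 0.01 for activin minus SB431542. Of the 10 genes, activin and control overlapped in 6, activin and SB431542 in 3. Across the alternative settings given further on, each array left out among them, the log2 differences of SB431542 minus control varied. They ran from −2.67 to −1.44 for Psmb8, from −1.72 to −1.56 for Psmb10 and from −1.90 to −1.26 for Erap1. For Psme1 they ran from −0.76 to −0.53. Those of Tapbp (−0.27 to 0.05), B2m (−0.18 to 0.19) and H2-K1 (−0.02 to 0.25) took both signs.

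Markers of other cell types moved with SB431542 as well. The summed intensity of 11 trophectoderm markers was 11497 and 11216 with activin and 18407 and 18183 with SB431542, against 13722 and 11939 in control. That of the 9 stem cell markers was 54503 and 53907 with activin and 46661 and 47669 with SB431542, against 53961 and 52853 in control. Such sums follow the brightest genes. Dppa5a, the brightest stem cell marker, had 14088 and 14946 with SB431542, against 17117 and 18040 in control. After SB431542, 6 of the 9 were below control and 3 above. With the intensity trend 5 were called lower and 1 higher, Klf4, at +0.50 (SE 0.12). Of the trophectoderm markers Ascl2, a transcription factor of that lineage, rose by 2.03 (SE 0.12, limma adjusted p = 0.0457) and Eomes, which also marks mesendoderm, fell by 2.32 (SE 0.14, limma adjusted p = 0.0457), while 8 of the 11 were called higher and 1 lower with the intensity trend. The summed intensity of 10 fibroblast markers, 4 of them at background throughout, was 447 and 507 with activin and 337 and 307 with SB431542, against 406 and 362 in control. That of 6 endothelial markers, 3 of them at background throughout, was 367 and 366 with activin and 363 and 301 with SB431542, against 346 and 335 in control. The part of these markers in the values of the 10 genes was not tested. In bulk RNA, fewer cells that express a gene and less RNA per cell cannot be told apart.

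A total of 6 of the 10 genes lie on chromosome 17, where Psmb9, Tap1, Psmb8 and Tap2 follow each other within the class II region of the major histocompatibility complex. Psmb10, Erap1, Psme1 and B2m lie on 4 other chromosomes. The 4 nearest measured genes on each side of Psmb8 were, in order, H2-DMa, H2-DMb2, Psmb9 and Tap1, and then Tap2, H2-Ob, H2-Ab1 and H2-Aa. Apart from Psmb9, Tap1 and Tap2 these are class II genes, with SB431542 minus control from −0.58 for H2-DMb2 and H2-Ab1 to 0.51 for H2-Aa. H2-DMa, H2-Ob and H2-Aa lay at or below background on 5 or 6 of the 6 arrays. H2-Ob had 11 and 8 with activin and 9 and 9 with SB431542, against 11 and 14 in control, all at background. H2-Ab1 was at 17 and 35 with activin and 30 and 22 with SB431542, against 35 and 42 in control. H2-DMb2 was over background on every array, with 55 and 44 after SB431542 against 98 and 55 in control. Its groups overlapped, and the SE of its difference was 0.39. The other class II neighbours, near background in control cells, had little room to be lower, so their differences cannot be set against the −2.60 of Psmb8.

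**Figure D3:**
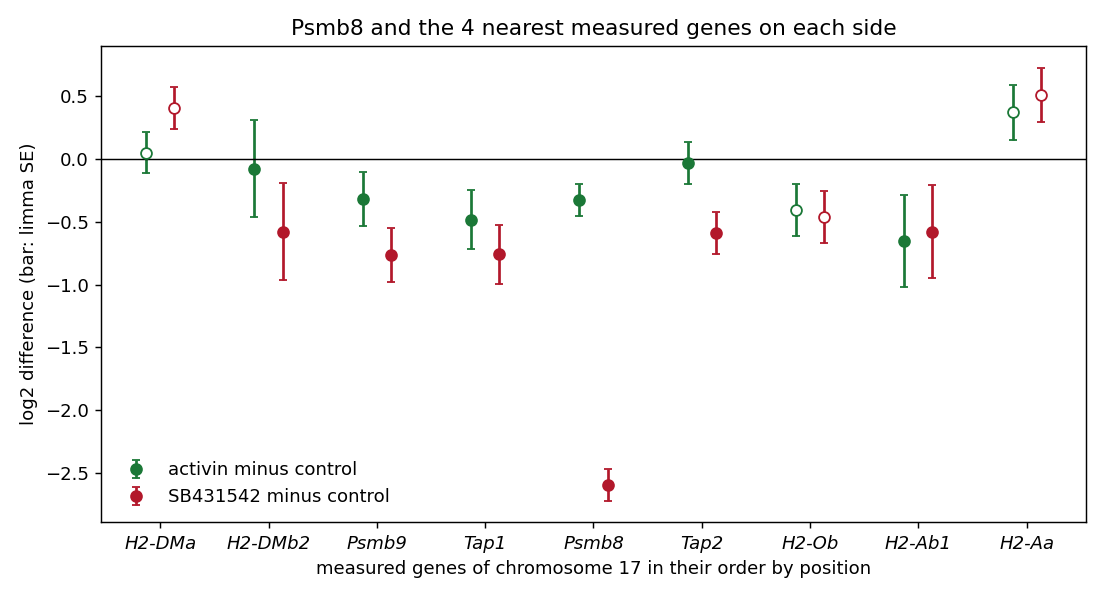
Log2 difference from control of Psmb8 and the 4 nearest measured genes on each side, in their order along chromosome 17, for activin (green, left of each pair) and SB431542 (red, right of each pair); bars are limma's SE and open points mark genes at or below background on 4 or more of the 6 arrays. Psmb8 with SB431542 is at −2.60 and its neighbours lie between −0.76 and 0.51, several of them limited by background.

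Other genes of class I presentation were spread about 0 after SB431542. Of 9 measured class I heavy chain genes beside H2-K1, 5 were below control and 4 above, with a median of −0.02 and 0 called. Of these 9, 3 lay at background on every array. By default 0.0155% of all probe sets were called, so counts of 0 in lists this small do not set their genes apart. The lowest was Mr1, which presents vitamin metabolites, with 104 and 172 after activin and 116 and 84 after SB431542, against 171 and 148 in control, a difference of −0.69 (SE 0.29, limma adjusted p = 0.404). H2-M3, which presents formylated peptides, was at −0.59 (limma adjusted p = 0.463). Of 14 chaperones, peptidases and translocon genes 7 were below and 7 above, again with 0 called. Tapbpl, a relative of tapasin, was at −0.46 (limma adjusted p = 0.450), and the cytosolic peptidases Thop1 and Tpp2 were at −0.28 and +0.20. Of 9 transactivators of class I and II genes 4 were below and 5 above, 0 of them called. Nlrc5, the class I transactivator, had 13 and 17 with activin and 13 and 17 with SB431542, against 17 and 16 in control, at background throughout. Rfxap, a subunit of the factor that binds the X box of these promoters, was at +0.40, Nfyb at −0.27 and Creb1 at +0.25. Of 11 class II genes 8 were below and 3 above, with 0 called and 3 at background on every array. H2-Oa, at −0.72 (limma adjusted p = 0.363), was the lowest of them.

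Receptors, kinases and factors of the interferon pathway were spread about 0, with Irf1 the lowest. Irf1, a transcription factor that acts on the shared promoter of Psmb9 and Tap1 in cells given interferon, had intensities of 772 and 778 on the activin arrays and of 345 and 368 on the SB431542 arrays, against 652 and 621 on the control arrays. The 3 groups did not overlap, and SB431542 minus control was −0.84 (SE 0.12, limma adjusted p = 0.162, and 4.33e-06 with the intensity trend). Ifngr2, a chain of the interferon gamma receptor, was at −0.63 (limma adjusted p = 0.243), and Stat2 at +0.34 (limma adjusted p = 0.378). Over 19 measured receptors, kinases and factors 9 were below and 10 above, with 0 called by default, where 0.0155% of all probe sets were. With the intensity trend 1 was called lower, Irf1, where 722 of all 45037 probe sets were.

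Of 27 interferon-inducible genes 22 were below control and 5 above, with a median of −0.24, where 53.4% of all probe sets were below. By default 0 were called, where 0.0155% of all probe sets were. With the intensity trend 5 were called lower and 0 higher, where 722 and 1520 of all 45037 probe sets were. The highest was Cxcl10, with 86 and 85 after SB431542 against 62 and 44 in control, at +0.71 (SE 0.19, limma adjusted p = 0.275). Irgm1, an immunity-related GTPase, had 408 and 430 with activin and 132 and 153 with SB431542, against 472 and 348 in control, a difference of −1.51 (SE 0.19, limma adjusted p = 0.140). Rtp4, a chaperone of receptor transport, had 50 and 65 with activin and 14 and 22 with SB431542, against 91 and 74 in control. Its difference of −2.23 (SE 0.27, limma adjusted p = 0.140) ends at background, which limits it. Ifi35 was at −1.13 (SE 0.14, limma adjusted p = 0.140). The other genes called with the intensity trend, named after their values were seen, were the GTPase genes Gbp2 at −0.67 and Igtp at −1.07, and 6 of the 27 lay at background on every array.

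**Figure D4:**
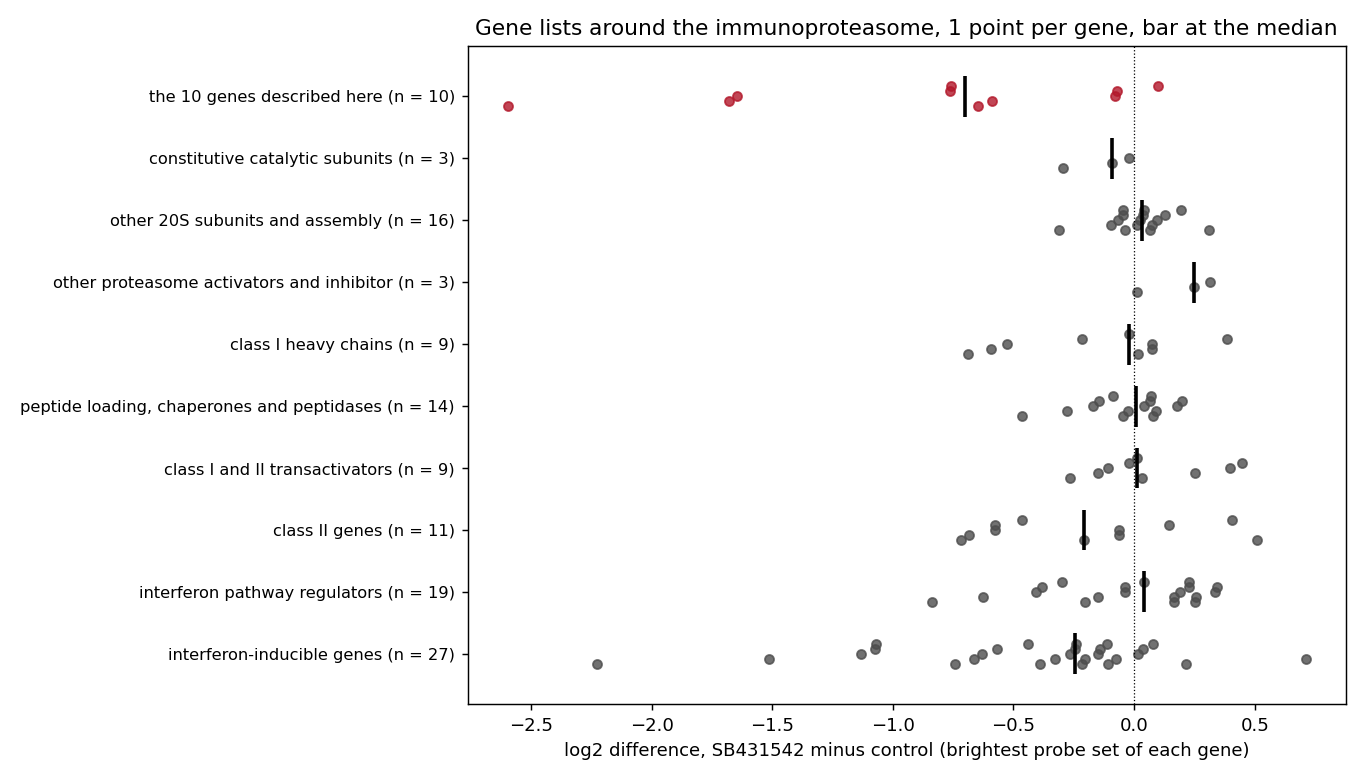
Log2 difference of SB431542 minus control at the brightest probe set of each gene, 1 point a gene and a bar at the median, for the 10 genes (red, top row) and 9 lists of related genes (grey). The medians are −0.70 for the 10 genes, −0.24 for the interferon-inducible genes and between −0.21 and 0.25 for the other lists.

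The comparison of activin with control addresses the response to added ligand after 2 h. It shares its control arrays with the comparison above, and its activin and control values both entered the choice of Psmb8, so the members' differences and counts of calls are a description here too. Of the 20 probe sets 0 were called by limma, by default or with the intensity trend, where 0% and 0.215% of all probe sets were. An unadjusted limma p under 0.05 was found in 1 of the 20, that of Psmb8, and in 2797 of all 45037 probe sets. Psmb8 is therefore not set apart by it. Activin minus control was −0.33 (SE 0.12) for Psmb8, −0.32 (SE 0.13) for Psme1 and −0.48 (SE 0.23) for Tap1. It was −0.09 (SE 0.13) for Psmb10, −0.31 (SE 0.24) for Erap1 and −0.32 (SE 0.21) for Psmb9, each at the brightest probe set. At the dimmer Erap1 probe set, at or below background on 3 arrays, it had the other sign, +0.48 (SE 0.33). Over all 20 probe sets 15 were below 0 and 5 above. The brightest probe sets of all 10 genes had a log2 difference below 0, as did 50.4% of all probe sets, and the median of the 10 was −0.20, against −0.00 over all probe sets. Several of these signs rested on 1 array. Without control replicate 1 the difference was 0.12 for Tapbp and 0.02 for both B2m and H2-K1, and without control replicate 2 it was 0.11 for Tap2. Both activin arrays lay below both controls in 4 of the 10, Psmb8, Psmb10, Psme1 and Tap1, where 14.5% of all probe sets did. Without control replicate 2 the count was 9 of 10, and the share of all probe sets was 39.1%. In the 9 lists of related genes 0 were called with activin, by default or with the intensity trend. Irf1 was at +0.28 (limma adjusted p = 0.811). In 17 of the 20 probe sets the first control array was above the second, as it was in 63.0% of all probe sets.

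Setting activin against SB431542 directly uses no control array, but Psmb8 was chosen on this difference too, and the treatments lasted 2 h and 24 h, so their durations and their agents cannot be told apart. Activin minus SB431542 was 2.27 (SE 0.12) for Psmb8, 1.55 (SE 0.13) for Psmb10 and 1.37 (SE 0.24) for Erap1. At the dimmer Erap1 probe set it was 1.33 (SE 0.33), and the SB431542 values of both Erap1 probe sets lay about or below background, which limits both differences. Tap2 was at 0.55 (SE 0.17), Psmb9 at 0.45 (SE 0.21), Psme1 at 0.32 (SE 0.13) and Tap1 at 0.27 (SE 0.23). B2m was at 0.01 (SE 0.13) at its brighter probe set and at −0.42 (SE 0.14) at the other, and H2-K1 was at −0.19 (SE 0.13). Both activin arrays lay above both SB431542 arrays in 6 of the 10 genes and below them in 1, H2-K1, where 18.7% of all probe sets lay above and 18.2% below. Of the 20 probe sets 1, that of Psmb8, was called by default, where 0.0200% of all were, and 5 with the intensity trend, where 2.27% were. These 5 were Psmb8, Psmb10 and both Erap1 probe sets, higher with activin, and an H2-K1 probe set, lower with activin. Here too the calls are a description.

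Across the 6 arrays, the 5 genes whose log2 values followed those of Psmb8 most closely were Slc27a2 (Pearson r = 0.998), Psmb10 (0.997), Igfbp3 (0.996), Ifi35 (0.992) and Trib2 (0.991), among 4504 genes with a probe set that spanned at least 1 log2 unit. The 6 arrays form 3 groups, so r follows the group means and is given as a description. Slc27a2, a fatty acid transporter, had 658 and 676 with activin and 357 and 395 with SB431542, against 740 and 721 in control. Igfbp3, a secreted binding protein of insulin-like growth factors, had 588 and 643 with activin and 219 and 251 with SB431542, against 773 and 696 in control. Among the brightest probe sets of the other 9 members, r with Psmb8 was 0.969 for Erap1, 0.895 for Tap2, 0.892 for Psme1, 0.829 for Psmb9, 0.701 for Tap1, 0.381 for Tapbp, 0.320 for B2m and −0.61 for H2-K1.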

How the data were processed

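RNA from 6 samples was hybridised to Affymetrix mouse arrays, 1 colour and 1 sample an array. The deposited intensities are whole numbers from 6 to 26405 on a linear scale. Per the submitters' processing notes they were made with RMA, with version and settings not given in the sources used here. The design text names the 430A array, whereas the 45101 rows carry probe sets of the larger 430 2.0 design. Each intensity was converted to log2 with no further scaling, and the 64 control probe sets were left out. Symbols came from GEO's platform annotation.

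All 6 arrays were fitted with limma 3.58.1 in R 4.3.3, with 1 mean per group, eBayes at default settings (3 residual and 2.51 prior degrees of freedom) and Benjamini-Hochberg adjustment over all 45037 probe sets. The fit was tested on simulated data. Alternatives were the intensity trend, other scalings, a filter on dim probe sets, a pseudocount of 16, each array left out and the replicate number as a block.

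Every member was named with each probe set; other genes were named by a rule (the 3 smallest p-values with SB431542 per list, all called genes and a short set given always). The members and lists were chosen with earlier results of these data known, and the neighbours of Psmb8 and the motifs after its values were seen. Genes of the lists with no probe set of their own, Psme2 among them, were not analysed here. The number of arrays limits the precision.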

Additional observations from a re-analysis of the deposited data

How the results depend on the processing

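The number of calls over all probe sets depended on the test far more than the members' differences did. For SB431542 against control, activin against control and activin against SB431542, the default counts of 7, 0 and 9 became 2242, 97 and 1024 with robust estimation and the intensity trend, 1200, 4 and 434 with the trend alone, and 791, 78 and 412 with columns shifted to 1 median. For SB431542 against control and activin against SB431542 they became 40 and 49 with quantile normalization repeated, 21 and 30 without the dimmest 40% of probe sets, and 41 and 64 with a pseudocount of 16, where activin against control stayed at 0. The cause of these shifts was not tested. Leaving out an array leaves 1 array in a group, so counts of calls are not given for those fits. The deviations of same-numbered arrays correlated at −0.14 between activin and control, 0.02 between SB431542 and control and −0.09 between activin and SB431542, so the numbers were not taken to pair arrays. With the replicate block the counts of calls were 0 and 1, and with the activin numbers crossed 2 and 3, and Psmb8 was called in neither. The genes whose brightest probe set was lower on every array numbered 7 to 10 for SB431542 against control with each array left out, against 7 with all, while the share of all probe sets lower on every array was 22.1% to 44.1%, against 22.1%. For activin against control they numbered 4 to 9, against 4, with shares of 14.5% to 39.1%, against 14.5%, and 8 with quantile normalization repeated, where the share was 18.9%. For activin against SB431542 they numbered 1 to 2, against 1, with shares of 18.2% to 37.8%, against 18.2%. Of 726 recomputed log2 differences of the members' probe sets, 700 moved by no more than the spread between arrays, 26 moved by more and 43 had the other sign, none of them called. Averaging the probe sets of Psmb8 gave −1.44 in place of −2.60 for SB431542 against control and 1.26 in place of 2.27 for activin against SB431542, since the second probe set lies at background. The crossed numbers and the trend alone were chosen after seeing the data. Values near background, those of Erap1 and Psmb8 with SB431542 among them, understate a difference.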

Other observations

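The 2 probe sets annotated to H2-K1 together with another heavy chain gene belong in no comparison of a single gene. One, shared with H2-D1, had intensities of 139 and 140 with activin and 167 and 152 with SB431542, against 145 and 106 in control. The other, shared with H2-Q5, had 74 and 92 with activin and 97 and 79 with SB431542, against 95 and 90 in control.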
